A study of Mus musculus with 8 samples.

Results

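In wild-type and Piezo1-Cko mouse hearts, 3 of the 4 groups of a 2-library design held 1 library with a high and 1 with a low level of Arntl (Bmal1), the transcription activator at the centre of the circadian clock. The genes described here are those that moved the same way between the high-Arntl and the low-Arntl library of all 3 groups. Of 54532 genes in the table, 14469 reached at least 0.5 FPKM (fragments per kilobase of gene length, scaled to library size) in at least 2 of these 6 libraries, and 3953 of the 14469, or 27.3%, moved the same way in every pair. Of these, 1787 genes (12.4%) were higher in all 3 high-Arntl libraries and 2166 (15.0%) were lower. The high-Arntl libraries are replicate 1 of Piezo1-Cko sham, wild-type TAC and wild-type sham, each above 3 FPKM of Arntl, and the low-Arntl libraries are replicate 2 of the same groups, each below 1.5 FPKM. Both Piezo1-Cko TAC libraries were low in Arntl, so that group formed no pair. The libraries were chosen by their Arntl level and the genes were selected on the pair differences themselves, so these differences are given as a description with no test, and nothing is read from the shares of genes that moved.

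The libraries came from total RNA of C57BL/6 heart tissue, 2 each from Piezo1-Cko mice after TAC (transverse aortic constriction, surgery that narrows the aorta and loads the left ventricle), Piezo1-Cko mice after sham surgery, wild-type mice after TAC and wild-type mice after sham surgery. Piezo1 encodes an ion channel opened by membrane stretch. Neither the cell type nor the exons that the Piezo1-Cko allele removes are given in the labels. Nor do they say at what age or how long after surgery the hearts were taken, at what time of day, or whether the 2 libraries of a group came from different mice. The spread between libraries may therefore be partly technical.

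Each library held between 15574769 and 17313084 reads assigned to genes. Reads from the mitochondrial chromosome made up 17.6% to 24.4% of a library. Cardiomyocyte markers were high in every library, with summed levels from 18869 to 33326 FPKM. Piezo1 had 5.24 and 3.89 FPKM in Piezo1-Cko TAC, 3.83, 5.38 and 2.35 FPKM in the high-Arntl libraries of Piezo1-Cko sham, wild-type TAC and wild-type sham, and 3.23, 5.83 and 3.09 FPKM in the low-Arntl ones. Piezo1-Cko values lay below wild type under TAC and above it under sham, and neither difference passed (limma adjusted p = 0.653 under TAC and 0.774 under sham), so the level does not check the genotype labels. Some high-Arntl libraries stood apart in markers of other cells. Summed atrial markers were 114, 1885 and 651 FPKM in the high-Arntl libraries of Piezo1-Cko sham, wild-type TAC and wild-type sham, against 117, 541 and 132 FPKM in their low-Arntl partners, with 1 of the 7 markers at 0 in all 8 libraries. Summed B-cell and plasma-cell markers were 28.99, 434 and 47.8 FPKM in the high-Arntl and 33.3, 14.98 and 19.5 FPKM in the low-Arntl libraries, again with 1 of 17 at 0 throughout. In heart tissue as a whole, fewer cells of a type and less RNA per cell cannot be told apart.

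The mammalian clock is a feedback loop in which ARNTL pairs with CLOCK or NPAS2 and binds E-box sequences near the Per, Cry, Nr1d and Dbp genes. PER and CRY proteins then block the pair, while NR1D1 and NR1D2 (REV-ERB) repress and ROR receptors activate Arntl through ROR elements, so that Arntl and Dbp peak at opposite times of day. The PAR bZIP factors DBP, TEF and HLF and their competitor NFIL3 carry the rhythm to D-box sequences, and in heart muscle this system is known to govern fuel use and some sarcomere and ion channel genes.

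These 3 sequences were searched, on both strands, in the 300 bases around the RefSeq start (250 bases before to 50 after, GRCm38.p6) of the clock genes: the E-box CACGTG, the D-box TTANGTAA and the ROR element TAGGTCA. The promoters below are those of the clock genes that moved the same way in all pairs and hold a motif, leaving out Klf11 for its small difference. They are shown 5′ to 3′ on the gene's strand with the motif letters in capitals. Arntl (chr7:113207261-113207560, plus strand) carries a ROR element that begins 30 bases after the start. Nfil3 (chr13:52980990-52981289, minus strand) carries one on the opposite strand, 12 bases before the start. Ciart (chr3:95882179-95882478, minus strand) has 3 E-boxes, at 116, 58 and 44 bases before the start. Tef (chr15:81802423-81802722, plus strand) has 1 E-box at 127 bases before, and Per3 (chr4:151044616-151044915, minus strand) has 2 D-boxes, at 205 and 158 bases before.
Arntl: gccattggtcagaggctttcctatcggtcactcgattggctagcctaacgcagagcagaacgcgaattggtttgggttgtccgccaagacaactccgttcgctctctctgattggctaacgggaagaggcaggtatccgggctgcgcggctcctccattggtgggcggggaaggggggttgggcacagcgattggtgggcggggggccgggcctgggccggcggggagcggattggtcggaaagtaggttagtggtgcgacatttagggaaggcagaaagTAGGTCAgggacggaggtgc
Nfil3: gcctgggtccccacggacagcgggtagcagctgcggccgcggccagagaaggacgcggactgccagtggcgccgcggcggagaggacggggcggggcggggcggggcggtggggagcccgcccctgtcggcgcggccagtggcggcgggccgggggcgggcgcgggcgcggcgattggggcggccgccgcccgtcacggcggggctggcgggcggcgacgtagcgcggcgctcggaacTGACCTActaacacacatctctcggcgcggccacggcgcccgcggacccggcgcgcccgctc
Ciart: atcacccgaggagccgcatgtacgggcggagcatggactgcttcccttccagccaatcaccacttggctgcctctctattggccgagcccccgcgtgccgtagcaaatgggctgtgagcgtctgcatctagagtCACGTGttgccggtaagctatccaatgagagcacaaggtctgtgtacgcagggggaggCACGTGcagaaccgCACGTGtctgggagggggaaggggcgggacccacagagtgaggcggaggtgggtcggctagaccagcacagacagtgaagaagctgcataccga
Tef: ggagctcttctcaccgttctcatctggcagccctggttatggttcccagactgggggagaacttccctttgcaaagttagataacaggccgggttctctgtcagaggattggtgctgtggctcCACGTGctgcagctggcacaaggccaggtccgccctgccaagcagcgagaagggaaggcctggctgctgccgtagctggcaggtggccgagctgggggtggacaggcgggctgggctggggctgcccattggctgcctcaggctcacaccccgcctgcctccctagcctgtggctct
Per3: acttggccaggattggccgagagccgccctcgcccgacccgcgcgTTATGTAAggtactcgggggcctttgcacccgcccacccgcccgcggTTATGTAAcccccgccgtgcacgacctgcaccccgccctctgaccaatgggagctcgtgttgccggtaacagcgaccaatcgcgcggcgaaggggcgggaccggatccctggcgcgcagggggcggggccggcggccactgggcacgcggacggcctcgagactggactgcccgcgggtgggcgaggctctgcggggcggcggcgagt

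A window was found for 24 of the 30 clock genes that passed the filter on low values. An E-box lay in 8 of the 24 (33.3%), against 8.09% of all 27025 genes with a window and 11.6% of the 10073 of them past the filter. Of these 8, only Ciart, Tef and Klf11 moved the same way in all 3 pairs, and Bhlhe41, Cipc, Cry1, Klf15 and Per1 were mixed. A D-box lay in 2 (8.33%, against 2.72% and 1.74%) and a ROR element in 2 (8.33%, against 2.97% and 2.28%). Among all genes that moved by at least 1.1-fold in every pair, the E-box share was 7.85% of the 331 matched genes higher in high-Arntl libraries and 11.7% of the 385 matched genes that were lower. For the ROR element these shares were 4.53% and 2.60%, and for the D-box 3.32% and 2.34%. The motif matches are letters in a window and not mapped binding sites.

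Of the 30 genes of the clock loop and its output factors that passed the filter, out of 32 listed, 19 moved the same way in all 3 pairs (63.3%), against 27.3% of all genes. Of the 19, 6 were higher and 13 lower in the high-Arntl libraries, and 8 moved by at least 1.5-fold in every pair, a size reached by 72 of the 14469 genes (0.498%). Over the 6 libraries, 4 of the 30 clock genes had all high-Arntl values above all low-Arntl values (2.76% of all genes did) and 9 had them all below (2.59% of all genes). Arntl is counted in the 19, the 6, the 8 and the 4, and its place in each was fixed by the choice of libraries. Rorb and Fbxl21 stayed under the filter.

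Arntl (chr7:113207465-113314126, plus strand, in the table's mm10 coordinates), which chose the libraries, had 3.89, 4.02 and 3.96 FPKM in the high-Arntl libraries of Piezo1-Cko sham, wild-type TAC and wild-type sham (in this order throughout), against 1.04, 1.39 and 0.796 FPKM in the low-Arntl libraries of the same groups. The lowest high value was thus 3.89 and the highest low value 1.39 FPKM. Both Piezo1-Cko TAC libraries lay below all 6, at 0.375 and 0.377 FPKM. The partners of ARNTL moved with it. Npas2 had 1.47, 1.91 and 2.11 FPKM in the high-Arntl libraries, against 0.314, 0.934 and 0.368 FPKM in the low-Arntl ones, with no overlap. Clock, whose transcript changes little over the day in most tissues, had 3.67, 4.54 and 3.797 FPKM in the high-Arntl libraries, against 2.61, 3.797 and 2.58 FPKM in the low-Arntl ones. Its groups overlapped, and its mean log2 difference on log2(FPKM + 0.5) was 0.38 ± 0.13 (SD over 3 pairs, as in each value below), against 1.52 ± 0.262 for Arntl and 1.21 ± 0.426 for Npas2.

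The PAR bZIP factors moved the other way, as the plot of clock gene levels shows. Dbp (chr7:45705088-45710203, plus strand) had 1.94, 2.37 and 3.22 FPKM in the high-Arntl libraries, against 51.1, 23.02 and 28.8 FPKM in the low-Arntl ones, a mean log2 difference of -3.47 ± 0.807. The groups lay far apart, the highest high-Arntl value being 3.22 FPKM and the lowest low-Arntl value 23.0 FPKM. Tef had 9.14, 8.55 and 9.89 FPKM in the high-Arntl libraries, against 24.9, 15.6 and 32.2 FPKM in the low-Arntl ones, also with no overlap. Hlf, the third PAR bZIP factor, had 1.79, 1.41 and 2.92 FPKM in the high-Arntl libraries, against 4.26, 2.49 and 3.59 FPKM in the low-Arntl ones, and its groups overlapped because the wild-type TAC library of the low-Arntl set was low. Nfil3, the competitor of these factors at D-boxes and the gene with the ROR element shown above, ran with Arntl. It had 13.1, 10.4 and 10.9 FPKM in the high-Arntl libraries, against 3.71, 5.565 and 6.33 FPKM in the low-Arntl ones.

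**Figure D1:**
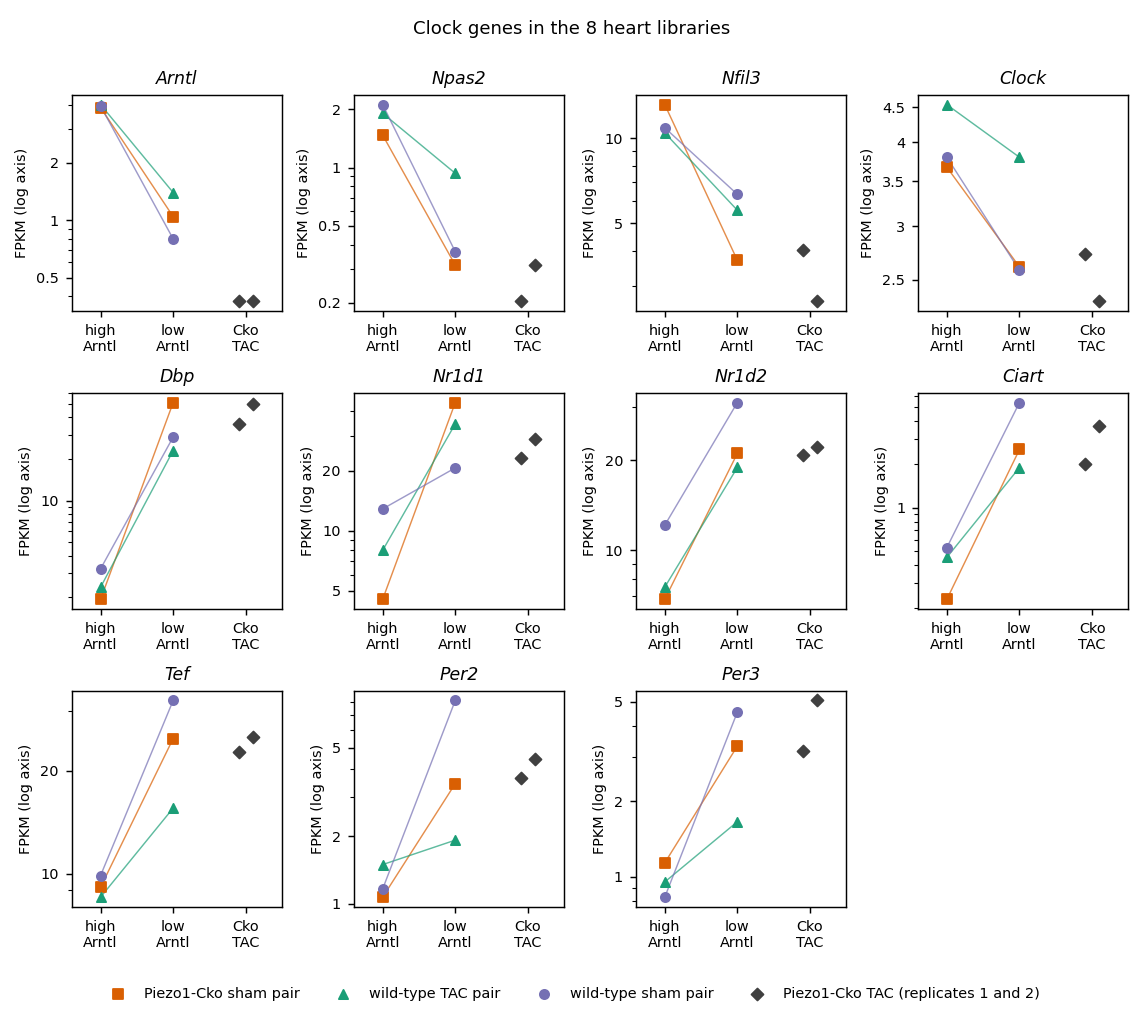
Levels of 11 clock genes in FPKM on log axes, with lines joining the high-Arntl and low-Arntl library of each of the 3 pairs and diamonds for the 2 Piezo1-Cko TAC libraries, which belong to no pair. Arntl, Npas2, Nfil3 and Clock were higher in the high-Arntl library of each pair and the other 7 genes were lower, with Dbp at 1.94 to 3.22 FPKM in the high-Arntl and 23.0 to 51.1 FPKM in the low-Arntl libraries.

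Among the repressors of Arntl, Nr1d1 (chr11:98767932-98775333, minus strand) had 4.52, 7.97 and 12.9 FPKM in the high-Arntl libraries, against 44.2, 34.5 and 20.7 FPKM in the low-Arntl ones. The groups did not overlap, but the size differed widely between pairs, with log2 differences of -3.15 in Piezo1-Cko sham, -2.05 in wild-type TAC and -0.67 in wild-type sham. The Nr1d1 gene overlaps Thra on the other strand, and whether the reads were counted by strand is not given in the sources used here. Nr1d2, its paralog, moved evenly, with 6.84, 7.51 and 12.1 FPKM in the high-Arntl libraries, against 21.1, 18.9 and 31.2 FPKM in the low-Arntl ones (-1.39 ± 0.149). Rora, an activator of Arntl, moved in different directions between pairs.

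The negative limb of the loop was mostly lower in the high-Arntl libraries. Ciart (Chrono), a repressor of the ARNTL complex and the gene with 3 E-boxes shown above, had 0.231, 0.452 and 0.529 FPKM in the high-Arntl libraries, against 2.54, 1.904 and 5.39 FPKM in the low-Arntl ones. Per2, a period gene, had 1.07, 1.496 and 1.17 FPKM in the high-Arntl libraries, against 3.45, 1.93 and 8.12 FPKM in the low-Arntl ones. Per3 had 1.13, 0.951 and 0.827 FPKM in the high-Arntl libraries, against 3.32, 1.66 and 4.55 FPKM in the low-Arntl ones. In all 3 genes the groups did not overlap and the wild-type TAC pair differed least. Cry2 had 3.06, 3.496 and 3.32 FPKM in the high-Arntl libraries, against 5.06, 4.599 and 5.43 FPKM in the low-Arntl ones, a smaller and steadier difference (-0.54 ± 0.167). Bhlhe40 (DEC1), a further repressor, had 5.45, 13.1 and 4.25 FPKM in the high-Arntl libraries, against 9.23, 18.8 and 13.7 FPKM in the low-Arntl ones.

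Not every clock gene kept one direction. Cry1, which in mouse tissues peaks later than the other Per and Cry genes, was higher in the high-Arntl library of 2 pairs and lower in the wild-type sham pair, with 6.78, 4.93 and 3.201 FPKM in the high-Arntl libraries, against 3.05, 2.85 and 3.71 FPKM in the low-Arntl ones. Per1, which also answers to glucocorticoids and other acute signals, had 2.74, 5.68 and 12.8 FPKM in the high-Arntl libraries, against 4.85, 5.56 and 19.45 FPKM in the low-Arntl ones, and its log2 difference was 0.03 in the wild-type TAC pair. Arntl2, Bhlhe41, Csnk1d, Csnk1e, Cipc, Timeless, Klf9 and Klf15 were mixed as well. Among the Krüppel-like factors of the list, the mean log2 difference was -0.58 for Klf10, -0.38 for Klf11 and 0.19 for Klf13.

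**Figure D2:**
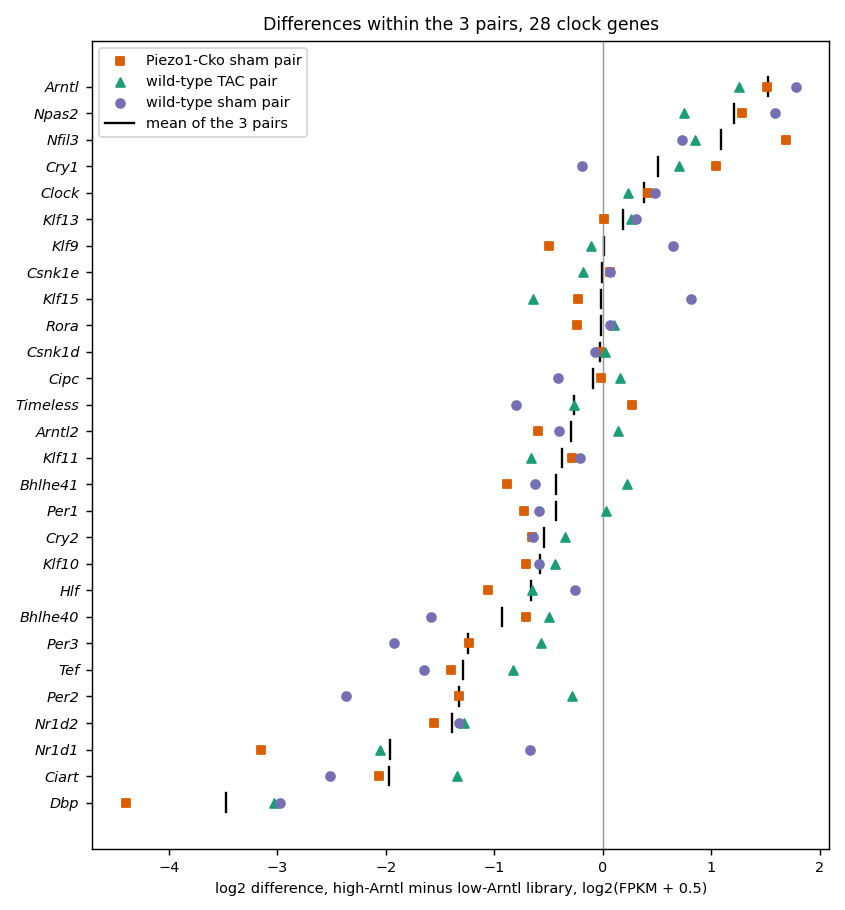
Log2 difference, high-Arntl minus low-Arntl library on log2(FPKM + 0.5), of 28 clock genes in the 3 pairs (symbols) with the mean of the pairs (vertical bars), ordered by that mean. The means run between -3.47 for Dbp and 1.52 for Arntl, and for Per2, Per3, Tef and Ciart the wild-type TAC pair lies nearest 0.

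The 3 low-Arntl libraries were not alike. The wild-type TAC library had the highest Arntl, Npas2 and Clock of the 3, and the lowest Dbp, Tef, Hlf, Nr1d2, Ciart, Per2, Per3 and Cry2. The Piezo1-Cko TAC libraries were left out of the pairs for their low Arntl, so that level is a value the choice rested on. Against the low-Arntl range they lay below it for Cry2 as well, and within it for Dbp, Tef, Nr1d1, Nr1d2, Ciart, Per2 and Bhlhe40. Dbp had 35.5 and 49.9 FPKM in Piezo1-Cko TAC and Nr1d1 had 23.3 and 28.8 FPKM. Klf10 lay above the low-Arntl range in both, at 9.54 and 9.83 FPKM.

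Past the clock genes, most members moved little. The median over members of the smallest fold among the 3 pairs was 1.054. The gene that passed the filter most narrowly had a second-highest level of 0.502 FPKM, and the gene that missed it most narrowly 0.49999 FPKM. Of the 3953 members, 1125 moved by at least 1.1-fold in every pair, 72 by at least 1.5-fold and 16 by at least 2-fold. The 72 were 42 higher and 30 lower genes, 33 of them predicted genes or pseudogenes, and 47 had at least 10 reads in 2 libraries. Across all 14469 genes the log2 differences of the pairs were only weakly related, with Pearson's r of 0.203 between the wild-type TAC and wild-type sham pairs, 0.0386 between Piezo1-Cko sham and wild-type sham and 0.0167 between Piezo1-Cko sham and wild-type TAC. These are correlations across genes, which are not independent and share the depth and scaling of their libraries.

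The 12 lower genes whose smallest difference over the 3 pairs was largest, leaving out predicted genes, were Dbp, Ciart, Nr1d2 and Tef with Ucp3, Mt1, Snora43, Hotairm1, Angptl4, Slc25a33, Tcap and Nr4a3. Ucp3, a mitochondrial uncoupling protein induced by fatty acids, had 8.93, 2.54 and 12.6 FPKM in the high-Arntl libraries, against 21.2, 10.4 and 27.6 FPKM in the low-Arntl ones, and its groups overlapped because both wild-type TAC libraries were low. Tcap, the Z-disc protein telethonin, had 893, 639 and 1794 FPKM in the high-Arntl libraries, against 3008, 1069 and 3330.1 FPKM in the low-Arntl ones, with the same kind of overlap. Slc25a33, a mitochondrial carrier of pyrimidine nucleotides, had 6.61, 5.04 and 7.57 FPKM in the high-Arntl libraries, against 11.5, 9.61 and 18.4 FPKM in the low-Arntl ones. Angptl4, a secreted inhibitor of lipoprotein lipase, had 2.13, 3.84 and 3.77 FPKM in the high-Arntl libraries, against 6.36, 16.4 and 6.73 FPKM in the low-Arntl ones. Mt1, a metal-binding metallothionein, had 109, 88.6 and 144 FPKM in the high-Arntl libraries, against 199.6, 314 and 444 FPKM in the low-Arntl ones. In the last 3 genes the groups did not overlap. Nr4a3, an orphan nuclear receptor of the immediate early response, had 0.109, 0.862 and 0.658 FPKM in the high-Arntl libraries, against 0.4801, 2.72 and 2.97 FPKM in the low-Arntl ones. Snora43 was counted at 0 in all 3 high-Arntl libraries and at 2, 1 and 4 reads in the low-Arntl ones, and Hotairm1, a long noncoding RNA of the Hoxa cluster, had at most 34 reads in any library.

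Lists of genes known to be driven by the clock, feeding or hormones are given beside the shares of all genes, 12.4% higher and 15.0% lower. Of 23 clock-controlled output genes that passed, 10 were lower (43.5%) and 1 was higher (4.35%) in all 3 high-Arntl libraries, and the median log2 difference was -0.25 in Piezo1-Cko sham, -0.29 in wild-type TAC and -0.25 in wild-type sham, against -0.000842, 0 and -0.0186 over all genes. Usp2, a deubiquitinase under clock control, had 7.36, 5.903 and 12.25 FPKM in the high-Arntl libraries, against 15.7, 10.3 and 18.9 FPKM in the low-Arntl ones. Of 27 fasting and fatty acid genes, 10 were lower (37.0%) and 1 was higher (3.70%), though the median was -0.21, -0.53 and 0.02 in the same order of pairs. Pdk4, the kinase that shuts off pyruvate dehydrogenase in fasting, had 34.02, 61.7 and 71.1 FPKM in the high-Arntl libraries, against 54.9, 112 and 152 FPKM in the low-Arntl ones. Txnip, an inhibitor of glucose uptake, had 121, 111 and 127 FPKM in the high-Arntl libraries, against 268, 177 and 166 FPKM in the low-Arntl ones, with no overlap. Ucp3, Pdk4 and Dgat2 stand in both lists.

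Of 20 glucocorticoid-responsive genes, 4 were higher and 6 were lower, 10 of 20 in all, against 27.3% of all genes. Ddit4, an inhibitor of mTORC1, had 31.8, 73.8 and 115 FPKM in the high-Arntl libraries, against 22.3, 20.95 and 48.2 FPKM in the low-Arntl ones, while Mt2, the second metallothionein, had 0.888, 0.823 and 0.598 FPKM in the high-Arntl libraries, against 1.33, 4.91 and 1.798 FPKM in the low-Arntl ones. The list thus held genes that moved in both directions. Of 22 cold-inducible RNA-binding and heat shock genes, 1 was higher (4.55%) and 6 were lower (27.3%), against 12.4% and 15.0% of all genes. Both directions together made 31.8%, near the 27.3% of all genes. The small heat shock protein Hspb1 was among the lower ones. It had 266, 188 and 229.7 FPKM in the high-Arntl libraries, against 294, 300.1 and 301 FPKM in the low-Arntl ones. Of 24 immediate early genes, Nr4a3 alone moved the same way in all 3 pairs.

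**Figure D3:**
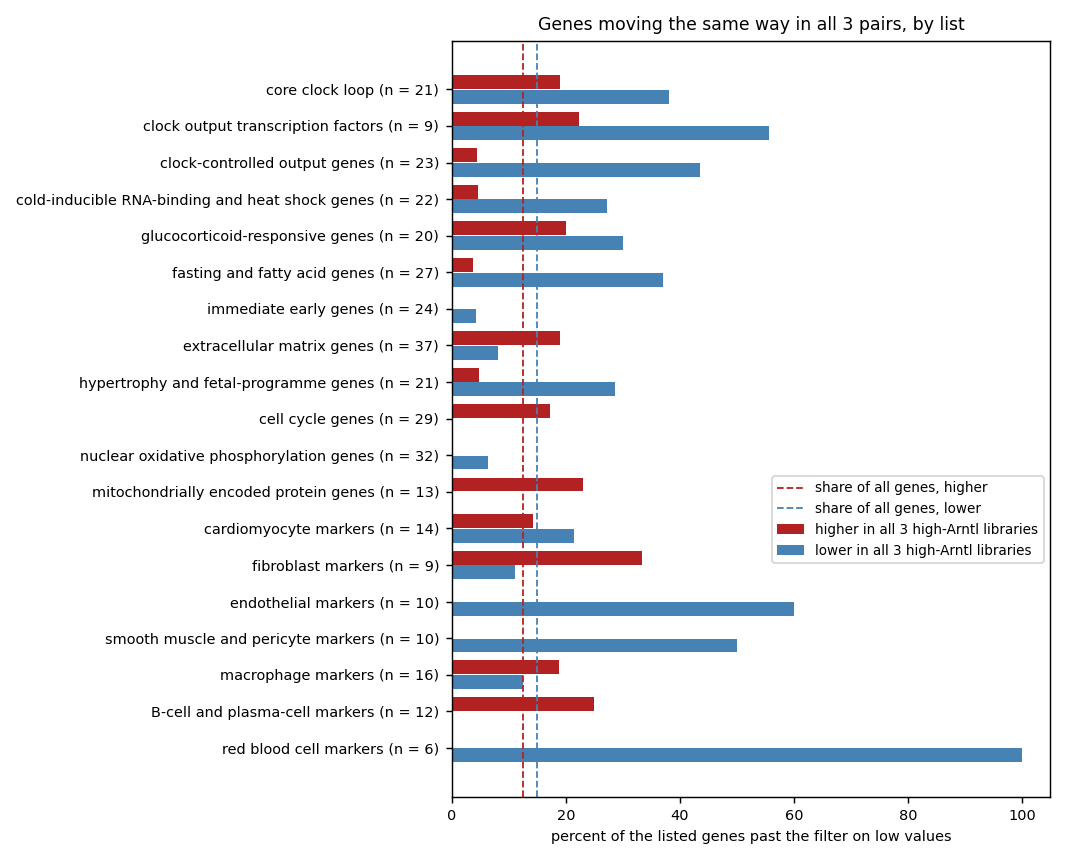
Percent of the genes of each list past the filter on low values (n beside its name, lists of 6 or more) that were higher (red) or lower (blue) in all 3 high-Arntl libraries; dashed lines give the shares of all genes, 12.4% higher and 15.0% lower. The core clock loop, clock output factors, clock-controlled genes and fatty acid genes lie past the line for lower genes. So do the heat shock, glucocorticoid-responsive and hypertrophy genes. The endothelial, smooth muscle and red blood cell markers lie past it as well, and B-cell and plasma-cell markers had 3 higher and 0 lower of 12. Cardiomyocyte markers lie past it with 3 lower of 14 (21.4%). With 2 of 14 (14.3%) they would not when scaled to the read total or to the total without mitochondrial genes.

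The 12 higher genes chosen in the same way were Arntl with Angptl7, Mir6386, Comp, Plvap, Mir6403, Rbp4, Irx2, Cdh11, Spon2, Cntn2 and Cdo1. Plvap, a protein of endothelial fenestrae, had 16.2, 14.04 and 10.1 FPKM in the high-Arntl libraries, against 7.13, 6.44 and 3.65 FPKM in the low-Arntl ones (1.18 ± 0.15). In Piezo1-Cko TAC, Plvap had 12.1 and 5.51 FPKM, 1 library within the high-Arntl range and the other within the low-Arntl range. Spon2, a secreted matrix protein, had 5.16, 4.23 and 2.94 FPKM in the high-Arntl libraries, against 1.44, 1.903 and 1.43 FPKM in the low-Arntl ones and 0.626 and 0.786 FPKM in Piezo1-Cko TAC. Cdh11, a cadherin of mesenchymal cells, had 1.09, 1.91 and 1.69 FPKM in the high-Arntl libraries, against 0.389, 0.528 and 0.285 FPKM in the low-Arntl ones. Cdo1, an enzyme of cysteine breakdown, had 2.18, 1.79 and 8.83 FPKM in the high-Arntl libraries, against 0.6404, 0.815 and 1.29 FPKM in the low-Arntl ones. In none of these 4 genes did the groups overlap. Cntn2, a cell adhesion molecule of the conduction system, had 0.519, 1.23 and 1.72 FPKM in the high-Arntl libraries, against 0.0772, 0.0974 and 0.01515 FPKM in the low-Arntl ones. Only the high-Arntl libraries brought it past the filter on low values. Irx2 (an Iroquois transcription factor) and Rbp4 (the retinol carrier) overlapped between groups. Mir6386 and Mir6403 rested on at most 5 reads in any library.

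A further set of higher genes differed most in the wild-type pairs. Comp, a cartilage and tendon matrix protein, had 2.93, 75.4 and 26.1 FPKM in the high-Arntl libraries, against 1.12, 1.39 and 1.26 FPKM in the low-Arntl ones. Fmod (fibromodulin, a collagen-binding proteoglycan) had 0.77, 46.5 and 32.05 FPKM in the high-Arntl libraries, against 0.494, 0.634 and 0.405 FPKM in the low-Arntl ones. Angptl7, a secreted angiopoietin-like protein, had 2.15, 18.5 and 10.01 FPKM in the high-Arntl libraries, against 0.545, 0.315 and 1.27 FPKM in the low-Arntl ones. In each gene the high-Arntl libraries of wild-type TAC and wild-type sham were far above the other 4 of the 6, and the Piezo1-Cko sham pair differed much less. In the same 2 pairs summed atrial markers were higher in the high-Arntl library, at 1885 FPKM against 541 FPKM in wild-type TAC and 651 FPKM against 132 FPKM in wild-type sham. In Piezo1-Cko TAC these sums were 751 and 525 FPKM, while Comp had 2.21 and 1.46 FPKM and Fmod 0.623 and 1.12 FPKM. Nppa stands in both the atrial list and the hypertrophy and fetal-programme list. The part of atrial tissue in these differences was not tested. Of 37 extracellular matrix genes, 7 were higher and 3 lower, which at 27.0% is the share of all genes (27.3%), with a median log2 difference of -0.17 in Piezo1-Cko sham, 1.3 in wild-type TAC and 0.36 in wild-type sham.

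**Figure D4:**
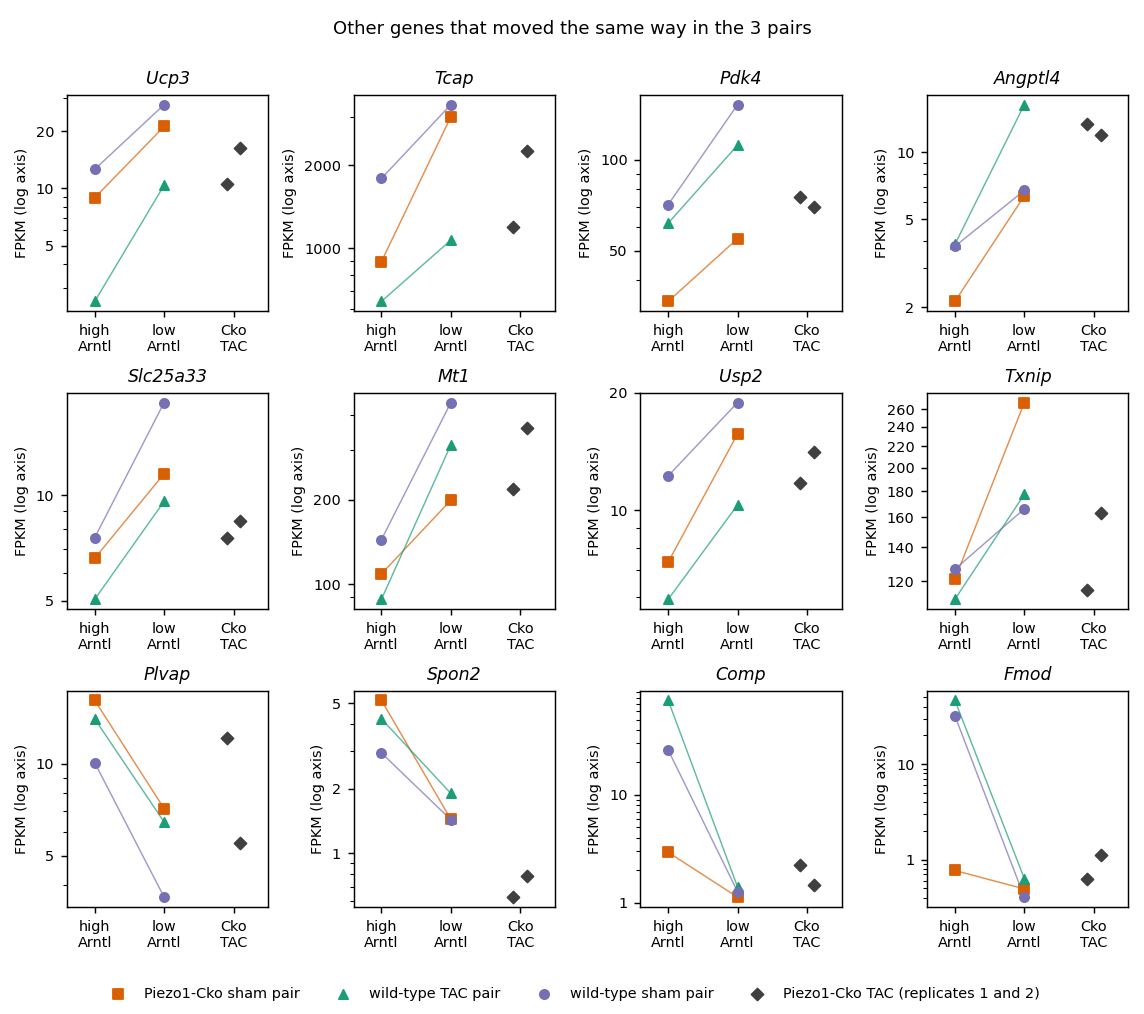
Levels of 12 further members in FPKM on log axes, with lines joining the high-Arntl and low-Arntl library of each pair and diamonds for the 2 Piezo1-Cko TAC libraries. Ucp3, Tcap, Pdk4, Angptl4, Slc25a33, Mt1, Usp2 and Txnip were lower in the high-Arntl library of each pair and the last 4 genes higher; Comp and Fmod reached 26.1 to 75.4 and 32.0 to 46.5 FPKM in the wild-type high-Arntl libraries, against 2.93 and 0.770 FPKM in the Piezo1-Cko sham one.

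Some lists of cell type markers differed between the libraries of a pair, while none of the atrial, neutrophil, T-cell or mesothelial markers that passed moved the same way in all 3. The counts below stand beside shares of 12.4% higher and 15.0% lower over all genes. All 6 red blood cell markers that passed, of 9 listed, were lower in the 3 high-Arntl libraries, with summed levels of 239, 102 and 275 FPKM in the high-Arntl libraries, against 485, 277 and 331 FPKM in the low-Arntl ones and 254 and 206 FPKM in Piezo1-Cko TAC. Of 10 endothelial markers, 6 were lower and 0 higher, and sums were 1047, 613 and 608 FPKM in the high-Arntl libraries, against 1129, 992 and 932 FPKM in the low-Arntl ones. Ly6c1 and Fabp4 were among these 6, so Plvap ran against the endothelial list. Of 10 smooth muscle and pericyte markers, 5 were lower, 0 higher and 5 mixed, and sums were 853, 996 and 789 FPKM in the high-Arntl libraries, against 949, 961 and 1218 FPKM in the low-Arntl ones, so the wild-type TAC pair ran the other way. Of 9 fibroblast markers, 3 were higher and 1 lower, with sums of 982, 857 and 1288 FPKM in the high-Arntl libraries, against 983, 706 and 834 FPKM in the low-Arntl ones. Of 12 B-cell and plasma-cell markers that passed, 3 were higher (25.0%), 0 lower and 9 mixed. The median log2 difference of this list was -0.3 in Piezo1-Cko sham, 2.6 in wild-type TAC and 0.36 in wild-type sham. Among the 3, Igha, the constant region of IgA heavy chain, had 1.35, 82.2 and 5.56 FPKM in the high-Arntl libraries, against 0.588, 0.106 and 0.951 FPKM in the low-Arntl ones, and the joining chain Jchain moved with it. In the Piezo1-Cko sham pair the median was -0.83 for red blood cell, -0.07 for endothelial, -0.23 for smooth muscle and pericyte and -0.03 for fibroblast markers. With mitochondrial genes left out of the total, 5 red blood cell markers were lower. Scaled to the read total, 2 fibroblast markers were higher, 4 smooth muscle and pericyte markers lower and 7 endothelial markers lower. The part of these cell types in the members' differences was not tested.

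Counted in both directions together, lists of the cardiac response to load, growth and respiration lay near or below the 27.3% of all genes. Of 21 hypertrophy and fetal-programme genes, 6 were lower (28.6%, against 15.0% of all genes) and 1 was higher (4.76%, against 12.4%). In all this made 33.3%, and 4 were lower and 2 higher with mitochondrial genes left out of the total. Acta1, skeletal actin, had 48.7, 745 and 75.5 FPKM in the high-Arntl libraries, against 177, 1018 and 189 FPKM in the low-Arntl ones, and the stretch-responsive Z-disc protein Csrp3 had 523, 542 and 640.2 FPKM in the high-Arntl libraries, against 636, 702 and 727 FPKM in the low-Arntl ones. Acta1 levels were far higher in both wild-type TAC libraries than in the sham ones, so the groups overlapped. Of 29 cell cycle genes, 5 were higher (17.2%) and 0 lower, by small steps, such as log2 differences of 0.08, 0.36 and 0.16 for Nusap1. Of 32 nuclear oxidative phosphorylation genes 2 were lower (6.25%). Of 13 mitochondrially encoded protein genes 3 were higher (23.1%), but the list had a median log2 difference of -0.36 in the wild-type TAC pair, against 0.27 in Piezo1-Cko sham and 0.7 in wild-type sham. The cytochrome oxidase subunit mt-Co2 was higher in all 3, at 2382, 914 and 1921 FPKM in the high-Arntl libraries, against 1536, 810.4 and 957 FPKM in the low-Arntl ones.

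The comparisons between groups were fitted across 13930 genes with limma on log2(FPKM + 0.5), with 1 term per group and Benjamini-Hochberg adjustment at 0.05. They use the same 6 libraries plus Piezo1-Cko TAC in other groupings. Each pair falls within a group there, so the pair differences enter these fits as spread. The median standard error of a log2 fold change was 0.295 over the 30 clock genes and 0.555 over the 48 tested members of at least 1.5-fold, against 0.183 over all genes. Those 48 were chosen for large differences within pairs. Their larger standard errors and few calls below therefore follow in part from that choice, and nothing is read from them.

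For TAC against sham in Piezo1-Cko hearts, 208 genes changed (1.49%), and 57 of the 3836 tested members did, also 1.49%. None of the 30 clock genes passed (4 had an unadjusted p under 0.05), nor did any of the 48 tested members of at least 1.5-fold (2 did). Arntl had 0.375 and 0.377 FPKM in TAC, against 3.89 and 1.04 FPKM in sham, a log2 fold change of -1.57 (SE 0.702, limma adjusted p = 0.247). Dbp had 35.5 and 49.9 FPKM in TAC, against 1.94 and 51.1 FPKM in sham, a log2 fold change of 1.92 (SE 1.66, limma adjusted p = 0.551). For both genes the low-Arntl sham library lay much nearer the TAC values than its partner did. Nr1d1 differed by 0.82 (SE 1.00, limma adjusted p = 0.685). The 5 members with the smallest p were Tnc, Ccnf, Nusap1, Gm2004 and Dpep1, with log2 fold changes between -1.43 and 3.96 (limma adjusted p = 0.023 to 0.028). Their mean log2 differences within pairs lay between -0.27 and 0.20. Without 1 library the count of 208 ranged over 0 to 378, being 0 without either sham library of this genotype and 6 without TAC replicate 1.

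A term for high or low Arntl was also added to this fit. The term is the class that chose the members, so genes that follow it move towards the contrast with the low-Arntl sham library by construction, and nothing is read from that. With it, the log2 fold change of Dbp was 0.19 (SE 0.383) and that of Arntl -0.81 (SE 0.196), while Nr1d1 differed by -0.16 (SE 0.545). Ciart differed by 0.14 (SE 0.367), against 1.13 (SE 0.943) without the term, and Nr1d2 by 0.11 (SE 0.141), against 0.80 (SE 0.635). Klf15 and Bhlhe41, which were mixed between pairs, differed by -1.04 (SE 0.337) and 0.78 (SE 0.279), against -1.03 (SE 0.297) and 1.00 (SE 0.312) without the term. With the term 0 genes passed of 13930, although 2957 had an unadjusted p under 0.05, and without Piezo1-Cko sham replicate 1 also 0. In that group Arntl level and replicate go together, and both TAC libraries are low, so the Arntl term and the surgery cannot be fully told apart there.

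**Figure D5:**
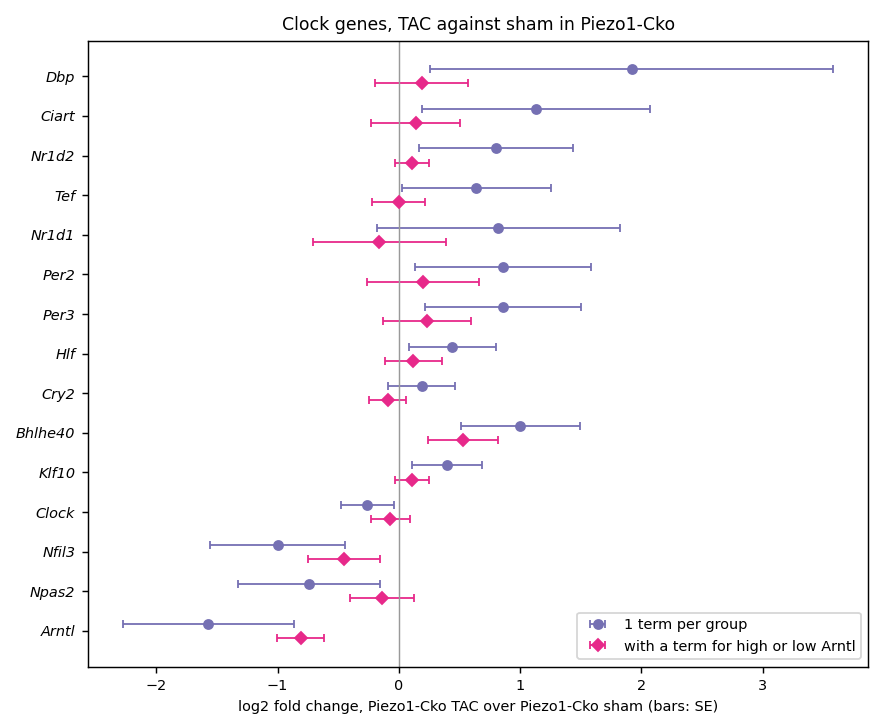
Log2 fold change, Piezo1-Cko TAC over Piezo1-Cko sham, of 15 clock genes with standard errors, from the limma fit with 1 term per group (circles) and from the same fit with a term for high or low Arntl (diamonds). The diamonds of Dbp, Ciart and Nr1d2 lie at 0.19, 0.14 and 0.11, against circles at 1.92, 1.13 and 0.80, a shift that follows from how these genes were chosen, and none of the 30 clock genes passed in either fit.

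For TAC against sham in wild-type hearts, 1841 genes changed (13.2%), and 498 of the 3836 tested members did (13.0%). Of the 48 tested members of at least 1.5-fold, 1 passed, the titin-associated ankyrin-repeat protein Ankrd23, named after its values were seen. It had 20.4 and 12.2 FPKM in TAC, against 5.35 and 3.06 FPKM in sham (log2 fold change 1.84, SE 0.418, limma adjusted p = 0.0343), and the higher value of each group was the high-Arntl library's. The pass was lost in 7 of 17 alternative settings, with limma adjusted p = 0.144 without sham replicate 2, 0.146 without TAC replicate 1, 0.0565 without sham replicate 1, and 0.0583 and 0.059 without Piezo1-Cko sham replicates 1 and 2, over a range of 0.00847 to 0.146. Per1 was the only clock gene to pass, with 5.68 and 5.56 FPKM in TAC, against 12.8 and 19.45 FPKM in sham. It fell by 1.41 on the log2 scale (SE 0.29, limma adjusted p = 0.0271). It was not a member. That pass was lost in 5 alternative settings, with limma adjusted p = 0.113 without sham replicate 2, 0.107 without TAC replicate 1 and 0.0624 without TAC replicate 2, over a range of 0.0142 to 0.113. Klf15, a glucocorticoid- and clock-driven regulator of cardiac metabolism, came near it (log2 fold change -1.05, limma adjusted p = 0.0572). Arntl differed by 0.28 (SE 0.702, limma adjusted p = 0.804) and Dbp by -0.35 (SE 1.66, limma adjusted p = 0.904). The 5 members with the smallest p were Gm49326, Slc27a1, Nusap1, Pimreg and Papln (limma adjusted p = 0.00573 to 0.00656). Without 1 library the count of 1841 ranged over 74, without TAC replicate 1, to 2113.

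For Piezo1-Cko against wild type under sham, 3 genes changed (0.0215%), of which 1, Gm49326, was a member and the others, Gapdh and Aplnr, named after their values were seen, were not. The count was 1 without either Piezo1-Cko sham library or either wild-type TAC library. In all 3 genes both wild-type sham libraries stood apart from every other library, wild-type TAC included. Gapdh had 81.1 and 122 FPKM in wild-type sham, against 2.31 and 2.84 FPKM in Piezo1-Cko sham and 1.77 and 1.55 FPKM in wild-type TAC. Aplnr had 10.4 and 11.5 FPKM, against 46.8 and 41.3 FPKM and 42.0 and 41.1 FPKM in the same order. Gm49326 had 2.79 and 2.24 FPKM, against 9.84 and 9.33 FPKM and 10.2 and 8.99 FPKM. The same wild-type sham libraries are the baseline of the 1841 genes called for TAC against sham in wild type. Whether a difference in processing set them apart was not tested. Arntl differed by 0.11 (SE 0.702, limma adjusted p = 0.987), each group holding 1 high and 1 low library. For Piezo1-Cko against wild type under TAC, limma called 0 of 13930 genes (0%; 1269 had an unadjusted p under 0.05, and limma-voom also called 0), and 18 passed without wild-type TAC replicate 2. Arntl had 0.375 and 0.377 FPKM in Piezo1-Cko TAC, against 4.02 and 1.39 FPKM in wild-type TAC, a log2 fold change of -1.74 (SE 0.702, limma adjusted p = 0.532). Dbp had 35.5 and 49.9 FPKM in Piezo1-Cko TAC, against 2.37 and 23.0 FPKM in wild-type TAC, a log2 fold change of 2.38 (SE 1.66, limma adjusted p = 0.674). Both Piezo1-Cko TAC libraries thus lay outside the wild-type TAC pair in each gene.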

How the data were processed

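The deposited table holds 1 value per gene and library for 8 libraries; all of its per-library columns were used. The table is named as one of counts, but each deposited value times the gene length is a whole multiple (within 0.01 read) of 1 step per library, so the values are FPKM made by the authors from whole reads. Per the submitters' processing notes, CASAVA 1.8, Bowtie 0.12.2 and featureCounts 1.5.0-p3 were used and the builds mm8 and mm10 are named; the table's coordinates are those of mm10. The kit and counting options for strand are not given in the sources used here.

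Libraries were called high or low by Arntl and paired within a group. Differences within pairs were taken on log2(FPKM + 0.5) and not tested. Genes were described if they reached 0.5 FPKM in 2 of the 6 paired libraries. Cntn2, Jchain and Mir6403 reached it only in high-Arntl libraries of the pairs, and Snora43 only in low-Arntl ones. Npas2, Ciart, Cdh11, Irx2, Rbp4, Fmod and Hotairm1 also needed the values of the class where they were higher to pass. For such genes the filter itself favours a separation of the classes, and nothing is read from it. Named are Arntl, Dbp, Nr1d1, the clock lists (2 of their genes are counted but not reported here), the 12 higher and 12 lower members with the largest smallest-of-3 difference (predicted genes left out) and up to 4 members of each other list. The members and the gene lists were chosen with earlier results of these data known.

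Groups were compared with limma 3.58.1 in R 4.3.3 (trend and robust options, 1 term per group, 8 libraries, 4 residual degrees of freedom), two-sided, for the 13930 genes that reached both 0.5 FPKM and 10 recovered reads in 2 libraries; the script was tested on simulated data. FPKM folds understate changes of low genes because of the pseudocount. Promoter sequences are from RefSeq. Alternatives covered the pseudocount, the filter, limma-voom on recovered reads, the scaling, the libraries fitted, a replicate block and an Arntl term. P-values measure the spread between libraries, which may be technical.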

Additional observations from a re-analysis of the deposited data

How the results depend on the processing

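With at least 1.1-fold in every pair the 3953 members were 1125, and with at least 1.5-fold 72; the 19 clock members were 8 at 1.5-fold. Without 1 of the pairs, genes moving the same way in the other 2 numbered 6854 to 7973 of 14469 (47.4% to 55.1%) and clock genes 21 to 25 of 30. Leaving out a pair can only keep or raise these counts, so nothing is read from the rise. With mitochondrial genes left out of the total, 58.8% of members were higher (2334 higher, 1637 lower), against 45.2% as reported. Of the mean pair differences of named genes under the other settings, 448 moved by less than 1 SD and 14 by more. Among genes that moved the same way in every pair, 0 changed sign. Leaving out a pair or changing the pseudocount cannot turn the sign of a mean of differences of the same direction. Nothing is therefore read from this. For mixed genes sign changes were not counted. Leaving mitochondrial genes out of the total raised the log2 differences by 0.072 in wild-type sham, 0.042 in wild-type TAC and 0.004 in Piezo1-Cko sham. Means of mixed genes near 0, such as -0.01 for Csnk1e, could therefore change sign.

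Genes called for TAC against sham in Piezo1-Cko were 0 with no filter on low values, 390 with limma-voom, 516 scaled to the read total, 0 with the Arntl term, 397 with only the 4 libraries compared and 0 to 378 without 1 library (0 without either Piezo1-Cko sham library, 6 without Piezo1-Cko TAC replicate 1 and 378 without its replicate 2, 95 and 94 without wild-type sham replicates 1 and 2, 357 and 362 without wild-type TAC replicates 1 and 2). In wild type they were 247 with no filter, 272 with only 4 libraries and 74 to 2113 without 1 library (74 without wild-type TAC replicate 1, 493 and 185 without wild-type sham replicates 1 and 2, 425 and 424 without Piezo1-Cko sham replicates 1 and 2). Scaling to the read total shifted all genes by 0.212 (Piezo1-Cko) and 0.231 (wild type) on the log2 scale, and the calls became 446 higher and 70 lower, against 132 and 76, and 1807 higher and 564 lower, against 775 and 1066. Under sham, Piezo1-Cko against wild type gave 1 without the filter and 1 to 4 without 1 library; under TAC it gave 1 with only 4 libraries and 0 to 18 without 1 library. The cause was not tested.

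With a replicate block the 4 counts were 236, 2188, 2 and 0. Same-numbered libraries deviated together with correlations of 0.0256 to 0.247, not over 0.1 in each case, so the numbers were not taken to pair the libraries across groups. In the 3 paired groups replicate 1 is the high-Arntl library, so the block there also carries the Arntl class. For TAC against sham in Piezo1-Cko it gave Arntl an SE of 0.41, against 0.702, and Dbp 0.838, against 1.66, and changed neither call (limma adjusted p = 0.0893 and 0.241).

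No called value changed sign. Of uncalled ones, Nr1d1 became -0.16 (TAC against sham in Piezo1-Cko) and -0.36 (Piezo1-Cko against wild type under TAC) with the Arntl term. Without 1 library, uncalled log2 fold changes that crossed 0 ranged as follows. For TAC against sham in Piezo1-Cko, Dbp ranged over -0.28 to 4.13 and Nr1d1 over -0.76 to 2.40. For TAC against sham in wild type, Arntl ranged over -0.61 to 1.18, Dbp over -1.86 to 1.17 and Nr1d1 over -0.99 to 1.05. For Piezo1-Cko against wild type, Arntl ranged over -0.78 to 1.0, Dbp over -2.10 to 2.31 and Nr1d1 over -1.75 to 1.41 under sham, and Nr1d1 over -0.41 to 1.64 under TAC. For transcripts of few reads, such as Mir6386, counting limits the values.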

Other observations

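Of 16 macrophage markers, 3 were higher and 2 lower in all 3 high-Arntl libraries (31.2% in all, near the 27.3% of all genes), and Aif1 had 4.98, 5.47 and 3.72 FPKM in the high-Arntl libraries of Piezo1-Cko sham, wild-type TAC and wild-type sham, against 2.94, 3.55 and 2.85 FPKM in their low-Arntl partners. Of 14 cardiomyocyte markers, 2 were higher and 3 lower (35.7%), and 28.6% moved the same way under either other scaling. Neutrophil markers, 0 of 4 moving the same way, summed to 5.702, 39.4 and 49.3 FPKM in the high-Arntl libraries, against 8.89, 22.3 and 6.52 FPKM in the low-Arntl ones, and differed as widely within Piezo1-Cko TAC, at 46.4 and 2.88 FPKM. T-cell markers (0 of 3) and the mesothelial marker that passed (0 of 1) were mixed as well, as were the 4 atrial markers that passed. Of 3 adipose markers, 2 were lower (15.0% of all genes were), and of 5 skeletal muscle markers, 2 were higher (12.4% of all genes were). Pvalb, a calcium-binding protein of fast muscle fibres, had 0.125, 1.65 and 2.91 FPKM in the high-Arntl libraries, against 0, 0 and 0.0677 FPKM in the low-Arntl ones. In the Piezo1-Cko sham pair this rested on 2 reads against 0. Only the high-Arntl libraries of the wild-type groups brought Pvalb past the filter on low values.

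Within Piezo1-Cko TAC, whose libraries formed no pair, Arntl rested on 52 and 49 reads, Nr1d2 had 20.8 and 22.2 FPKM, Tef 22.7 and 25.2 FPKM and Cry2 4.58 and 4.53 FPKM, while Per1 had 2.78 and 3.98 FPKM.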
